A study of Mus musculus with 5 samples.

Results

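The proteasome is the large protease that degrades ubiquitin-tagged proteins in the cytosol and nucleus. The genes described here are its subunits and activators, taken as every symbol in the deposited expression table that reads Psma, Psmb, Psmc, Psmd or Psme followed by digits only. Psmb8 and Psmb9, the interferon-inducible catalytic subunits, were set apart, and Psmc3ip, whose product is a meiotic recombination factor, was not counted. The rule found 35 of the 11643 genes in the table, and all 35 passed the filter for testing, a mean of at least 1 FPKM (a fragment count scaled by transcript length and by library total) over the 5 libraries.

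The libraries were RNA-seq of haematopoietic stem cells (HSCs) sorted from the marrow of C57BL/6 mice by surface markers (Lin- cKit+ Sca1+ CD150+ CD48-). Values by library are given in replicate order, the 3 controls first and then the 2 libraries labelled deficient. Controls gave 3 libraries, and their genotype is given only as control. Their titles also carry the code VavC with the replicate number, which the labels do not explain. The other 2 libraries carry the label Tle1/3/4-deficient, meaning that floxed Tle1, Tle3 and Tle4 were to be removed by Vav-Cre, which acts in all blood cells and not in HSCs alone. Ages were not given in the sources used here, nor whether replicates were different animals. A p-value here therefore reflects the spread among 5 libraries, which may be technical.

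Tle3, a targeted gene, went against its label, at 2.48, 4.97 and 5.61 FPKM in controls against 32.3 and 31.6 FPKM with the deficient label. Tle4 was at 5.67, 0.0129 and 5.29 against 0.353 and 0.203 FPKM, and Tle1 at 1.83, 0.811 and 3.33 against 2.84 and 4.37 FPKM. In the limma test described below, Tle3 had an adjusted p of 0.424. Whether these gene-level values include exons outside the floxed part was not tested. They do not show the removal of all 3 genes, so every direction below rests on the labels. All 10 HSC markers on the list were above 0 in every library, with sums of 355 to 545 FPKM in controls against 391 and 223 FPKM. The sums hide differences between these genes. Kit (165, 185 and 149 against 102 and 102 FPKM), Hlf (24.9, 19.4 and 25.1 against 6.17 and 9.96 FPKM), Mecom and Mllt3 lay below every control, as did 15.9% of all genes tested. Slamf1 lay above every control (14.9, 24.0 and 21.1 against 31.8 and 31.0 FPKM), as did 10.2% of all genes tested. The remaining HSC markers overlapped. The sums for genes of other cells differed more. The 15 granulocyte-monocyte markers summed to 994 to 3455 FPKM in controls against 11891 and 70179 FPKM, the last being 11.7% of that column, and none was at 0. Megakaryocyte-platelet markers (10 of 10 in the table) summed to 723 to 1472 FPKM against 8295 and 3806, with Selp and Tubb1 at 0 in control replicate 2. Erythroid markers (8 of 10) summed to 9.45 to 35.4 FPKM against 96.7 and 583, with Alas2, Ermap and Sptb at 0 in control replicate 1 and Ermap also in control replicate 2. Of the lymphocyte markers only 3 of 10 were in the table, at 48.8 to 59.5 FPKM against 16.4 and 119, with Cd79a at 0 in control replicate 1 and deficient-labelled replicate 1. Their part in the results below was not tested, and in bulk samples fewer cells of a type and less RNA per cell cannot be told apart. Absolute depth is unknown, and low values gave a relative depth of at most 1.46 times between libraries, on thin support.

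The proteasome consists of a barrel, the core particle, capped by a regulatory particle. In the core, alpha subunits form the outer rings and gate the entrance, and beta subunits form the inner rings, where only some carry proteolytic sites. In the regulatory particle, a base with a ring of ATPases unfolds the substrate and a lid removes its ubiquitin, while separate activators can open the core without ATP. Protein turnover in HSCs is known to be closely regulated. Of 41 subunit symbols listed by role, Psma1, Psma4, Psmb5, Psmb6, Psmb11 and Psmd3 were not analysed here, so 2 of the 3 constitutive catalytic subunits are missing from what follows.

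No member was called between the groups. The test was limma on log2(FPKM + 1) over all 10570 genes, adjusted by Benjamini and Hochberg with a threshold of 0.05, by which 0.0189% of all genes tested were called. At an unadjusted p under 0.05 there was 1 of 35 members, Psma8, on the lower side, against 5.18% of all genes lower and 3.26% higher. The median log2 fold change of the members was 0.061, with 23 positive and 12 negative. All genes tested had a median of -0.10, with 4682 positive and 5888 negative. Psme3, whose values may include failed estimates, is counted among the negative members. Core members had a median of 0.12 (10 of 12 positive) and regulatory particle members 0.033 (10 of 16 positive). For 21 of the 35 members, limma's 95% interval lay within a 2-fold change in either direction. The other intervals reached past a 2-fold change on at least 1 side, and that of Psma8 lay wholly beyond it.

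Both deficient-labelled libraries lay above every control for 3 members, Psmc1, Psmc2 and Psmd8 (8.57% of members, against 10.2% of all genes tested). Both lay below every control for 4 members, Psma8, Psme4, Psmd6 and Psmd11 (11.4%, against 15.9% of all genes tested). These shares are near those of all genes, so the separation of these 7 genes is given gene by gene and not as a property of the family.

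**Figure D1:**
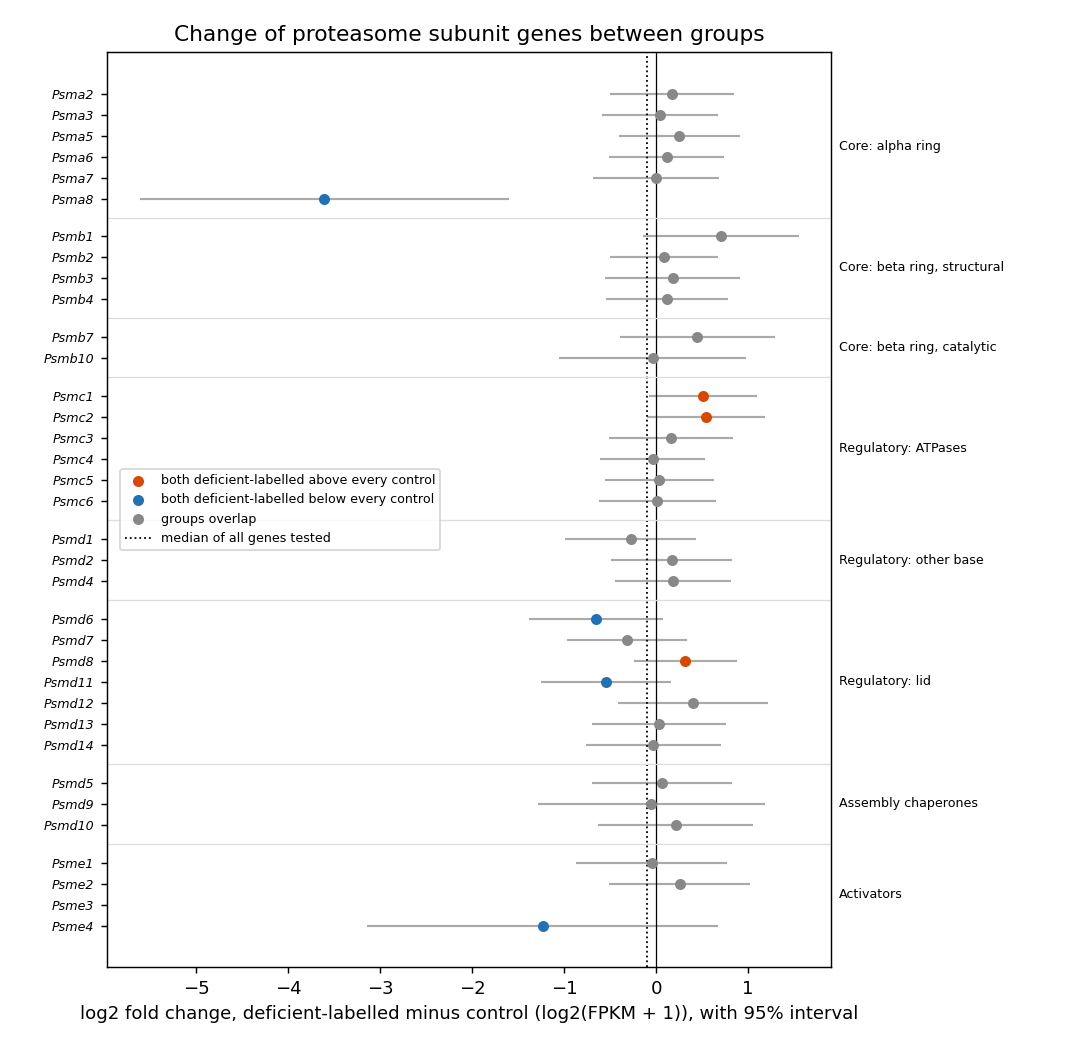
Log2 fold change of each member between the 2 deficient-labelled and 3 control libraries on the log2(FPKM + 1) scale (x axis), with limma's 95% interval as a bar, by role (y axis). Colours mark members whose 2 groups do not overlap. Psma8 is the 1 member whose interval leaves out 0. Psme3 is not drawn because it is listed at 0 in 1 library of each group.

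The genes were abundant in both groups. By control mean, 25 of the 35 stood in the top 10% of the table, and 30 were above 50 FPKM in every library. FPKM is scaled to transcript length, which allows only a rough comparison between genes, because the annotation and quantifier are not stated. By median FPKM the core particle was the higher of the pair. Its median was 204, 217 and 199 FPKM in controls against 261 and 192 FPKM. That of the regulatory particle was 116, 136 and 110 against 120 and 114 FPKM. The order of the members by level was much the same in every library, with Spearman correlations across the 35 genes of 0.900 to 0.968 between pairs of libraries, compared with 0.760 to 0.835 across all genes tested. These are descriptions across genes that share each library and span a wide range of levels. The members also varied less between control libraries than most genes. The median SD of log2(FPKM + 1) in controls was 0.23 for members, 0.53 for all genes tested and 0.29 for the 2118 genes averaging 50 FPKM or more.

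**Figure D2:**
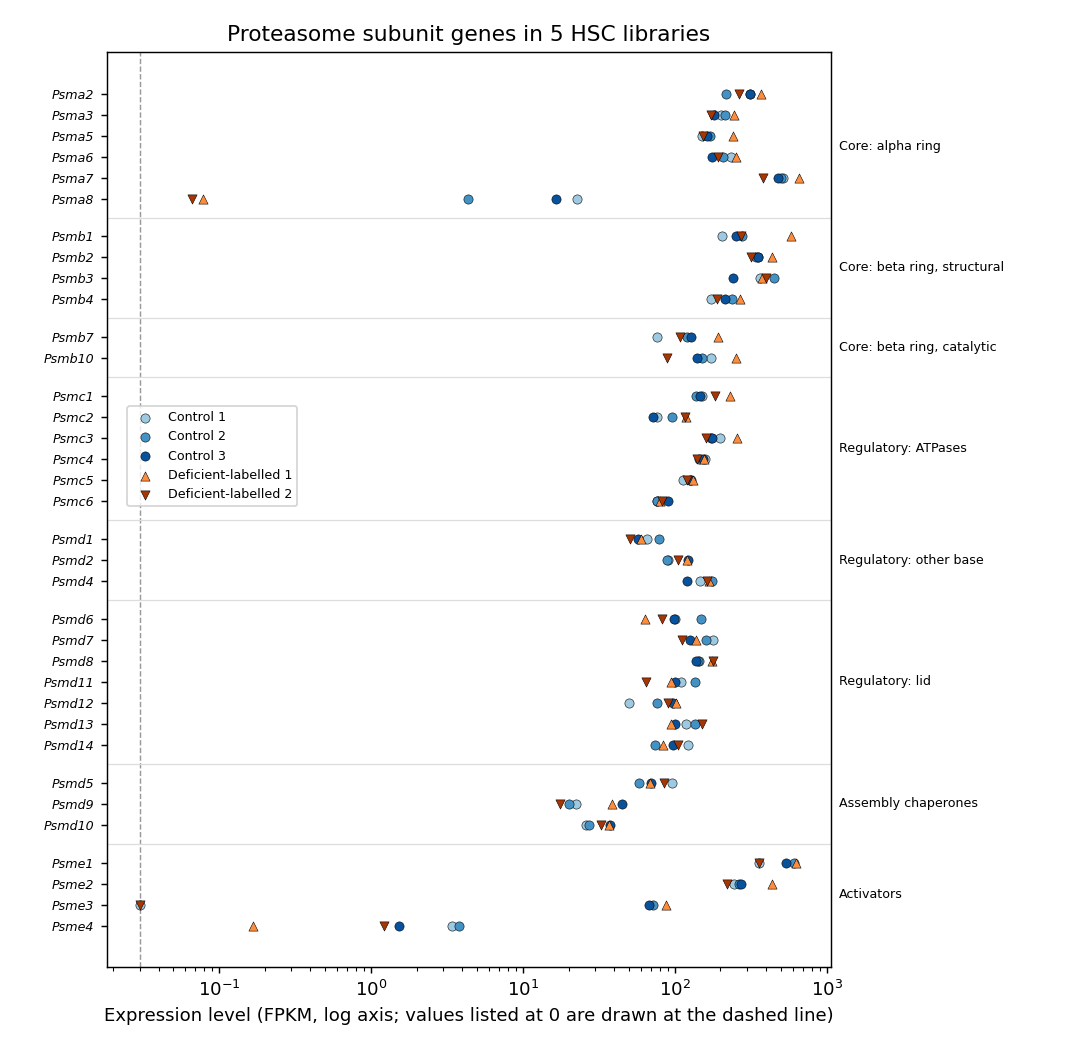
Expression level in FPKM (log axis) of each member in each of the 5 libraries, by role. Of the 35 members, 30 lie above 50 FPKM in every library. Psma8 lies far below its controls in both deficient-labelled libraries, and Psme3 is listed at 0 in control replicate 1 and deficient-labelled replicate 2.

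Among the alpha subunits, Psma7 was the highest, at 516, 504 and 475 FPKM in controls against 653 and 381 FPKM with the deficient label. The deficient-labelled libraries thus lay on either side of all controls. Psma2 followed at 281 ± 53.6 FPKM in controls (SD, n = 3), then Psma6 at 206 ± 28.3 and Psma3 at 199.5 ± 17.1, a pair that differed by less than their spread, and Psma5 at 161 ± 10.3 FPKM. In deficient-labelled replicate 1 the same 4 genes were at 368, 255, 245 and 241 FPKM, each above every control. In replicate 2 they were at 265, 194, 172 and 154 FPKM, where only Psma3 lay below every control.

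Psma8 encodes an alternative alpha subunit, related to Psma7, that is known from spermatogenic cells. It was at 22.6, 4.38 and 16.6 FPKM in controls against 0.0785 and 0.0664 FPKM with the deficient label. Even the lowest control was far above both deficient-labelled libraries, and the controls themselves differed several-fold. The log2 fold change was -3.61 (SE 0.86, 95% interval -5.62 to -1.60, limma, adjusted p = 0.433 over all genes). It was the lowest adjusted p of any member, and over 14 alternative settings it ranged from 0.273 to 0.733. Even in controls its level was a small part of that of Psma7. Exact zeros occur in this table for abundant genes such as Psme3, and whether the low values of Psma8 are failed estimates was not tested.

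Among the structural beta subunits, Psmb1 varied the most. It was at 206, 278 and 254 FPKM in controls against 585 and 271 FPKM with the deficient label. Only replicate 1 stood above the controls, while replicate 2 lay among them. Its log2 fold change of 0.71 (SE 0.36, 95% interval -0.14 to 1.55) was the largest positive value of any member and did not pass (limma, adjusted p = 0.640). Leaving out deficient-labelled replicate 2 gave 1.26, and leaving out replicate 1 gave 0.15. Psmb2, the most even of the 4 in controls, was at 351, 341 and 355 FPKM against 434 and 317. Psmb3 was at 366, 449 and 241 against 373 and 400 FPKM, and Psmb4 at 173, 240 and 215 against 268 and 190 FPKM. Psmb3 was the exception among them in that neither deficient-labelled library left the range of the controls.

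The catalytic subunits in the table form a pair for the same trypsin-like site. Psmb7 is the constitutive form, and Psmb10 replaces it in the immunoproteasome, the variant core that is induced by interferon gamma and generates peptides for antigen presentation. Psmb7 was at 76.8, 120 and 127 FPKM in controls against 192 and 109 FPKM with the deficient label. Psmb10 was at 174, 150 and 140 against 255 and 88.5 FPKM. For Psmb10 the 2 deficient-labelled libraries lay on opposite sides of all controls. Neither gene passed, with log2 fold changes of 0.45 (SE 0.36, limma, adjusted p = 0.744) for Psmb7 and -0.036 (SE 0.44, adjusted p = 0.986) for Psmb10. The ratio of Psmb10 to Psmb7 within a library, which does not depend on library scaling, was 2.27, 1.25 and 1.10 in controls against 1.33 and 0.811. The 2 groups overlapped, and control replicate 1, with the lowest Psmb7 of all libraries, had the highest ratio.

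Psmb8 and Psmb9 are the other inducible catalytic subunits, and their constitutive counterparts Psmb5 and Psmb6 were not analysed here. Psmb8 was at 402, 453 and 391 FPKM in controls against 578 and 311 FPKM with the deficient label. Psmb9 was at 384, 387 and 277 against 353 and 182 FPKM. In control HSCs the mean of Psmb8 was 415 FPKM, above that of every core member except Psma7. The mean of Psmb9 was 349 FPKM, close to those of Psmb2 and Psmb3. Neither Psmb8 nor Psmb9 passed (log2 fold changes 0.031 and -0.44, limma, adjusted p = 0.983 and 0.737). Set against the median of Psmb1 to Psmb4 in the same library, Psmb9 was at 1.38, 1.25 and 1.12 in controls against 0.874 and 0.618, both below every control. The same ratio for Psmb8 was 1.44, 1.46 and 1.58 against 1.43 and 1.06, also below every control, though by very little in deficient-labelled replicate 1. Both ratios were chosen after the values were seen and are given without a test.

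**Figure D3:**
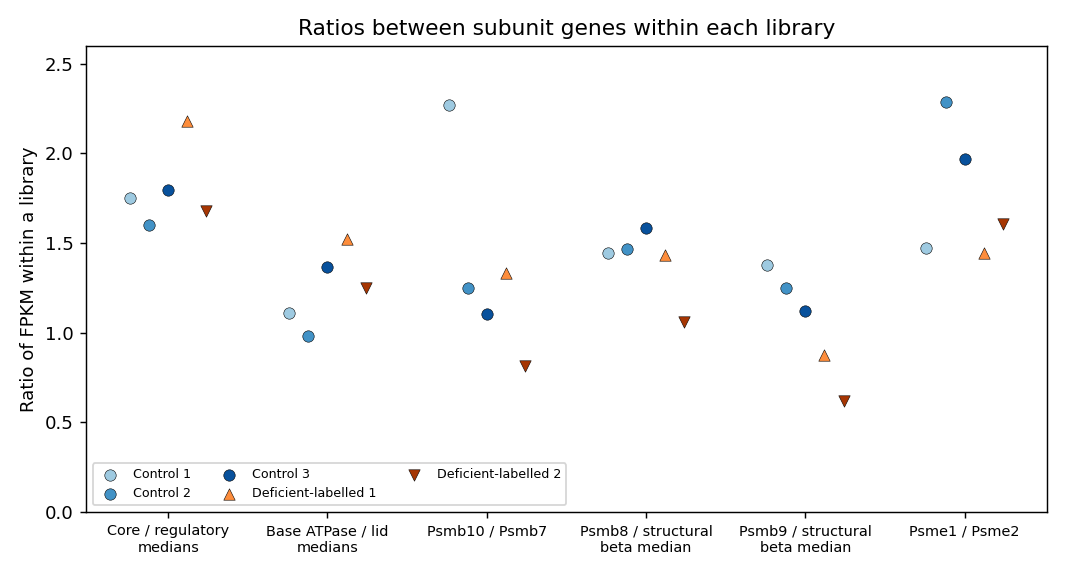
Ratios of FPKM within each library (y axis) for 6 pairs of genes or medians (x axis), 1 point per library. The ratio of Psmb9 to the median of Psmb1 to Psmb4 is below every control in both deficient-labelled libraries, at 0.874 and 0.618, and the core to regulatory ratio is highest in deficient-labelled replicate 1, at 2.18.

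The 6 ATPases of the base form the ring that unfolds substrates. Psmc1 was at 150, 138 and 146 FPKM in controls against 231 and 184 FPKM with the deficient label. Its log2 fold change was 0.51 (SE 0.25, 95% interval -0.080 to 1.10, limma, adjusted p = 0.633). Psmc2 was at 76.7, 95.3 and 72.2 against 119 and 117 FPKM, with a log2 fold change of 0.54 (SE 0.28, 95% interval -0.10 to 1.18, adjusted p = 0.638). In both genes each deficient-labelled library exceeded the highest control, and for Psmc2 the 2 deficient-labelled values were close to each other. Psmc3, the highest of the ring by control mean, was at 198, 173 and 176 FPKM against 258 and 161. The other 3 varied little between libraries. Psmc4 was at 159, 144 and 153 against 155 and 141 FPKM. Psmc5 was at 113, 129 and 127 against 131 and 121 FPKM. Psmc6, the lowest of the ring by mean over all libraries, was at 75.8, 76.5 and 90.9 against 80.2 and 83.0 FPKM. In none of these 3 did the deficient-labelled pair separate from the controls.

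The base also holds 3 subunits that are not ATPases, of which Psmd1 and Psmd2 are large scaffolds and Psmd4 is a ubiquitin receptor. Psmd4 was the highest, at 147, 175 and 120 FPKM in controls against 169 and 163 FPKM with the deficient label. Psmd2 was at 90.7, 89.4 and 123 against 121 and 104 FPKM, and Psmd1 at 65.4, 78.8 and 57.0 against 59.5 and 50.6 FPKM. In each of the 3 the groups overlapped.

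Of the 7 lid genes, 3 separated the groups, in both directions. The shares were 14.3% above every control and 28.6% below, against 10.2% and 15.9% of all genes tested. With only 7 genes, these shares are not read as a property of the lid. Psmd6 was at 101, 149 and 98.7 FPKM in controls against 63.8 and 82.3 FPKM with the deficient label (log2 fold change -0.65, SE 0.31, limma, adjusted p = 0.621). Psmd11 was at 110, 135 and 101 against 94.0 and 64.6 FPKM (log2 fold change -0.55, SE 0.30, adjusted p = 0.663). Psmd8 lay the other way, at 144, 143 and 139 against 175 and 180 FPKM (log2 fold change 0.32, SE 0.24, adjusted p = 0.732). For Psmd6 and Psmd11 the deficient-labelled pair lay below every control, and for Psmd8 above. The spread of Psmd8 within a group was small, with an SD of 2.53 FPKM over controls and 3.28 FPKM over the deficient-labelled pair, and limma's SE, which borrows from genes of like level, was larger than that spread alone gives. For Psmd11 the gap to the nearest control was small in deficient-labelled replicate 1, and its log2 fold change was -0.28 without deficient-labelled replicate 2.

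The remaining 4 lid genes overlapped between groups. Psmd14, the deubiquitinase that removes ubiquitin chains as the substrate enters, was at 122, 74.5 and 97.2 FPKM in controls against 84.3 and 105 FPKM with the deficient label. Psmd7, its catalytically inactive partner and the highest lid gene by control mean, was at 179, 161 and 126 against 137 and 111 FPKM. Psmd12, the lowest by control mean, was at 50.2, 76.7 and 97.0 against 101 and 90.1 FPKM. Psmd13 was at 119, 136 and 100.03 against 94.1 and 152 FPKM, and its deficient-labelled libraries fell on either side of the controls. The ratio of the base ATPase median to the lid median was 1.11, 0.982 and 1.36 in controls against 1.52 and 1.25, which overlapped.

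The 5 members of the regulatory particle with separated groups are shown with the 250 bases before their annotated starts (RefSeq, build GRCm38.p6, which is not the mm9 build of the deposited table). They are printed so that the higher set (Psmc1, Psmc2, Psmd8) and the lower set (Psmd6, Psmd11) can be read beside each other. Capitals mark matches on either strand to CCGGAA (the ETS core), GGGCGG (the GC box), CCAAT or TGACNNNGC (an antioxidant response element, the kind of site NFE2L1 and NFE2L2 bind), and none of the marked matches overlap. Psmc1 is from chr12:100109952-100110201 on the plus strand. Psmc2 has 2 annotated starts, from chr5:21785025-21785274 and chr5:21786497-21786746 on the plus strand. Psmd8 is from chr7:29180674-29180923 on the minus strand, Psmd6 from chr14:14120946-14121195 on the minus strand and Psmd11 from chr11:80428365-80428614 on the plus strand.
Psmc1: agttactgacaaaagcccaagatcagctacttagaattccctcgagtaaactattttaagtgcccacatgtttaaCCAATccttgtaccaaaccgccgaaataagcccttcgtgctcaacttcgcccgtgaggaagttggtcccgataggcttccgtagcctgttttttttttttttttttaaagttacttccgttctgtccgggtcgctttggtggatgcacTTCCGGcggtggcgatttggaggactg
Psmc2, first start: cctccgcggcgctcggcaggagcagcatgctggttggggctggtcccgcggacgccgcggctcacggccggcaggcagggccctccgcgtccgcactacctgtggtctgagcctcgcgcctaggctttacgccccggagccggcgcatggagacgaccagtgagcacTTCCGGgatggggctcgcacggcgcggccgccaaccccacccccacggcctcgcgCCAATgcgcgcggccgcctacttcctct
Psmc2, second start: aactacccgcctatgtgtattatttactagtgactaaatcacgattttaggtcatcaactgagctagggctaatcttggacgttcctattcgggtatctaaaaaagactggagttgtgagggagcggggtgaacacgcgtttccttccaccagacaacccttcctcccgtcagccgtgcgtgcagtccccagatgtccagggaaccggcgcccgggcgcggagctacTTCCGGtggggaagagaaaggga
Psmd8: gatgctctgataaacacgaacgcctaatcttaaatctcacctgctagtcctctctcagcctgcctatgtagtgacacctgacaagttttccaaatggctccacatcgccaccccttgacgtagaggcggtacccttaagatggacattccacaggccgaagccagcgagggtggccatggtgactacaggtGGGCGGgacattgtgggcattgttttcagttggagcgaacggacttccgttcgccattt
Psmd6: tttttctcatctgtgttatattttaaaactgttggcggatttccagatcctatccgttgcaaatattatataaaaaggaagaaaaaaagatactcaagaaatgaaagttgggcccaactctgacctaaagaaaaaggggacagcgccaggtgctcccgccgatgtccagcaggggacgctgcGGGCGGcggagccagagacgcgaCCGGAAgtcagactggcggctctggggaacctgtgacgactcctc
Psmd11: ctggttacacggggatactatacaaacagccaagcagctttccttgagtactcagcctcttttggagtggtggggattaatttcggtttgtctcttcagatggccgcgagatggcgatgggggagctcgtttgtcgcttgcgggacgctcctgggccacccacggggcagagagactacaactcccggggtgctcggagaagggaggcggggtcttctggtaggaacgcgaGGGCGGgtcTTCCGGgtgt

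The ETS core was present before the starts of both lower genes and of Psmc1 and Psmc2 among the higher ones. CCAAT was marked only among the higher genes, in Psmc1 and Psmc2. The GC box was marked in Psmd6 and Psmd11, the lower genes, and in Psmd8 alone among the higher ones. The genes are few and none was called, so whether any motif goes with the direction of the difference was not tested. Promoters were listed for 29 of the 35 members (not matched were Psma8, Psmb1, Psmb2, Psmb7, Psmc3 and Psmd7), and 7 motifs were searched on both strands. CCGGAA was found in 15 of the 29 (51.7%), against 13.6% of all 27025 genes with a listed promoter and 27.0% of the 8158 tested genes with one. GGGCGG was found in 17 (58.6%), against 35.4% and 64.7%, and CCAAT in 11 (37.9%), against 37.5% and 40.7%. TGACNNNGC was found in 3 (10.3%), Psmc6, Psmd9 and Psmd12, against 11.5% and 14.5%. The E-box CACGTG was found in 3 (10.3%), against 6.86% and 10.2%, and TATAAA in 3 (10.3%), against 14.3% and 7.26%. TGACGTCA was found in 0, against 1.77% and 3.09%. A match describes the letters only and was not tested as a binding site.

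Psmd5, Psmd9 and Psmd10 encode chaperones that help assemble the base and leave the finished particle. Psmd9 and Psmd10 were lower by control mean than every core or regulatory subunit except Psma8. Psmd5 was at 95.6, 58.1 and 69.6 FPKM in controls against 68.4 and 84.7 FPKM with the deficient label. Psmd10, also called gankyrin, was at 26.1, 27.3 and 37.3 against 36.8 and 32.8 FPKM. Psmd9 was at 22.3, 20.03 and 45.1 against 38.9 and 17.7 FPKM. In each of the 3 the groups overlapped, and the differences were within the spread of the controls.

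Among the activators, Psme1 and Psme2 form the interferon-inducible PA28 ring. Psme1, whose control mean was the highest of the 35 members, though above that of Psma7 by less than its spread, was at 359, 610 and 537 FPKM in controls against 632 and 356 FPKM with the deficient label. Psme2 was at 244, 267 and 272 against 438 and 222 FPKM. For both genes deficient-labelled replicate 1 was above every control and replicate 2 below every control. Neither passed (log2 fold changes -0.047, SE 0.35, and 0.26, SE 0.33, limma, adjusted p = 0.980 and 0.850). The ratio of Psme1 to Psme2 was 1.47, 2.29 and 1.97 in controls against 1.44 and 1.61, which overlapped.

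The other activators were less regular. Psme4, which encodes the nuclear activator PA200, was at 3.43, 3.82 and 1.53 FPKM in controls against 0.168 and 1.21 FPKM with the deficient label. It was the lowest member in controls, and its lowest control was only slightly above the higher deficient-labelled library (log2 fold change -1.24, SE 0.82, 95% interval -3.14 to 0.67, limma, adjusted p = 0.704). Psme3, the nuclear activator PA28 gamma, was listed at 0 in control replicate 1 and in deficient-labelled replicate 2. In the other 3 libraries it was at 72.1, 68.1 and 88.1 FPKM, for control replicates 2 and 3 and deficient-labelled replicate 1. Because the zeros can be failed estimates, no fold change is given.

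The 2 deficient-labelled libraries lay apart from each other for most core members. In deficient-labelled replicate 1, 10 of the 12 core members lay above every control and 1 below, against 26.5% and 28.6% of all genes tested. In replicate 2, 0 of the 12 lay above every control and 5 below, against 21.6% and 33.4% of all genes tested, so the 5 are near the share of all genes. Core members were higher in replicate 1 than in replicate 2 for 11 of 12, with a median fold of 1.42 between the 2 libraries. Both figures include Psma8, at 0.0785 and 0.0664 FPKM, values near 0 that may be failed estimates. The regulatory particle showed 11 of 16 with a median fold of 1.10, and its lid 3 of 7 with a median fold of 0.97. Among the 2118 genes averaging 50 FPKM or more, 69.0% were higher in replicate 1, with a median fold of 1.23. The 8 TRiC chaperonin subunits, another abundant ring complex, gave 6 of 8 with a median fold of 1.22. The 7 COP9 signalosome subunits, which are related in structure to the lid, gave 4 of 7 with a median fold of 1.26. These are counts from 1 library against another, and they carry no test.

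**Figure D4:**
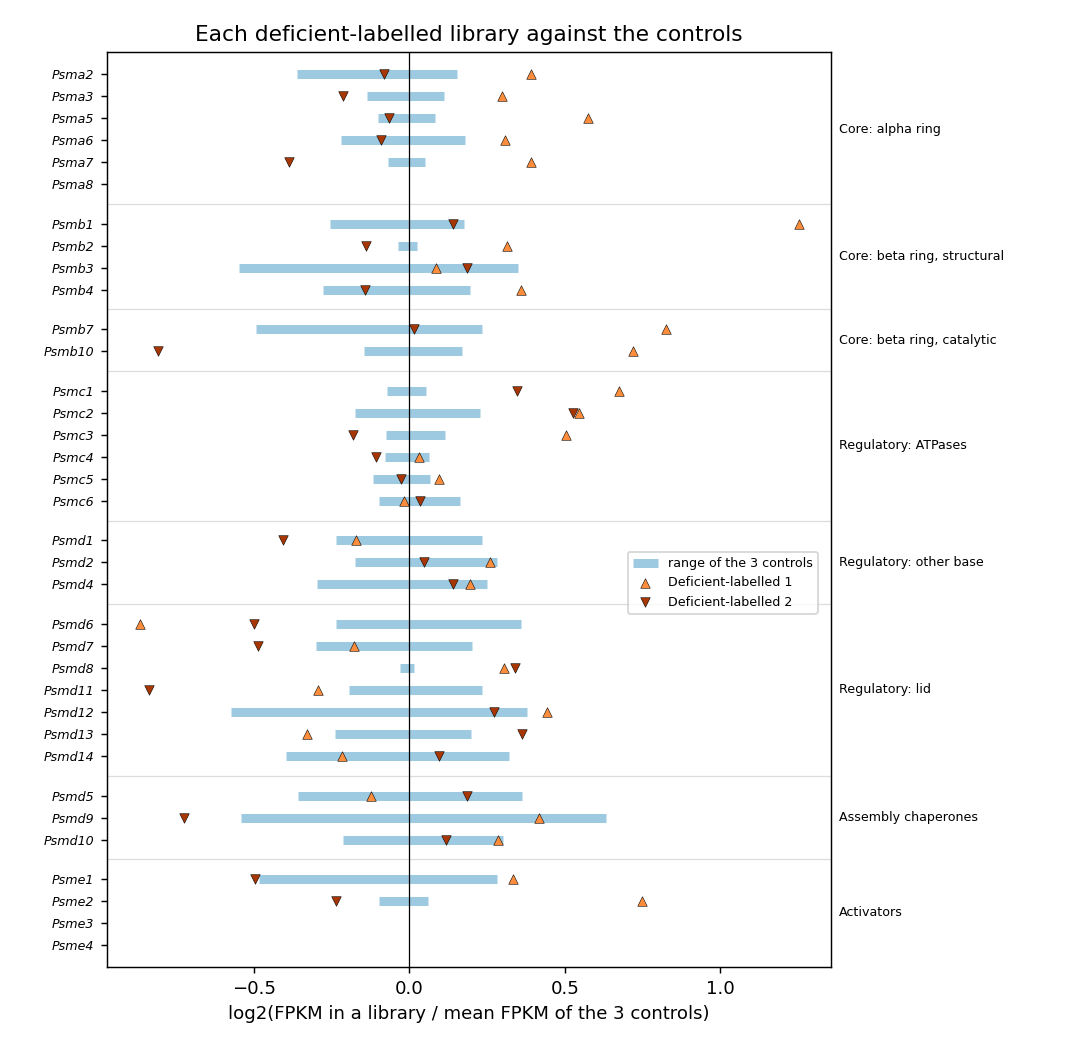
Log2 ratio of each deficient-labelled library (triangles) to the mean of the 3 controls (x axis), with the range of the controls as a bar, by role (y axis). Upward triangles, for replicate 1, lie right of the control range for most core members. Downward triangles, for replicate 2, lie within it or to its left for each of them. Psma8, Psme3 and Psme4 are left blank because they were near or at 0 in at least 1 library.

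The ratio of the core median to the regulatory median, which is free of library scaling, was 1.75, 1.60 and 1.80 in control replicates 1, 2 and 3. It was 2.18 in deficient-labelled replicate 1 and 1.68 in replicate 2, so only replicate 1 stood outside the controls. The 35 members together made up 0.881%, 0.923% and 0.848% of the summed FPKM in controls against 1.06% and 0.862%. Leaving out deficient-labelled replicate 1 gave core members a median log2 fold change of -0.10, and leaving out replicate 2 gave 0.38. Granulocyte-monocyte markers were highest in deficient-labelled replicate 2 and megakaryocyte-platelet markers in replicate 1, with the sums given above. Their part in the difference between these libraries was not tested.

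Further genes of the pathway were listed by role and not by how they moved, and 31 of them were in the table. None of the 31 was called (limma, lowest adjusted p = 0.621), and none had an unadjusted p under 0.05. Their median log2 fold change was 0.0055, with 16 positive and 15 negative. Both deficient-labelled libraries lay above every control for 1 gene and below for 2 (3.23% and 6.45%, against 10.2% and 15.9% of all genes tested).

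Core assembly needs its own chaperones. Pomp, which is consumed as the barrel matures, was at 329, 245 and 276 FPKM in controls against 348 and 247 FPKM with the deficient label. Psmg4 was at 234, 142 and 204 against 223 and 108 FPKM. All 5 genes of this list were higher in deficient-labelled replicate 1 than in replicate 2, as the core members mostly were, and their groups overlapped.

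Among factors bound to the particle, Shfm1, a small lid component, was at 577, 547 and 634 FPKM in controls against 794 and 603 FPKM with the deficient label. Adrm1, a ubiquitin receptor, was at 143, 145 and 91.1 against 152 and 126 FPKM. Akirin2, which is needed to bring proteasomes into the nucleus, was listed at 0 in control replicate 1 and at 15.1 and 13.3 FPKM in the other controls, against 24.2 and 12.2 FPKM. None of the 10 genes on this list separated the groups.

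The transcription factors were measured too. Nfe2l1, which drives proteasome genes when proteasome activity falls short, was at 2.65, 12.04 and 11.6 FPKM in controls against 13.4 and 11.3 FPKM with the deficient label. Nfe2l2, its relative of the antioxidant response, was at 64.3, 49.1 and 48.2 against 66.2 and 75.7 FPKM, both above every control though by little in replicate 1 (log2 fold change 0.40, SE 0.31, limma, adjusted p = 0.734). Vcp, the segregase that extracts substrates and acts on the way to active NFE2L1, was the highest of this list and even throughout, at 178, 193 and 172 against 166 and 180 FPKM.

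Upstream of the particle, the ubiquitin-activating enzyme Uba1 was at 68.8, 92.3 and 101 FPKM in controls against 100.4 and 54.5 FPKM with the deficient label. Its relative Uba6 was low, at 7.73, 6.45 and 5.83 against 3.25 and 5.41 FPKM, both below every control (log2 fold change -0.55, SE 0.65, limma, adjusted p = 0.836). Of the receptors that bind ubiquitinated cargo, Sqstm1 was the highest, at 130, 148 and 112 against 72.4 and 99.4 FPKM. Both deficient-labelled libraries lay below every control, and its adjusted p of 0.621 was the lowest on these lists (log2 fold change -0.60, SE 0.29, limma).

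Some members share their position with other genes, which can matter where reads are not assigned by strand. In a GENCODE annotation of a later build, 16 of the 35 members overlapped another annotated gene, and 8 of these overlapped a protein-coding one, among them Psmb7 (Nek6), Psme1 (Emc9), Psmc3 (Slc39a13), Psmd9 (Hpd) and Psmd13 (Sirt3). Of the 7 members whose groups did not overlap, only Psme4 shared its position, with a processed pseudogene on the other strand. Whether the counting used strand, and how it treated reads that match processed copies elsewhere, was not given in the sources used here.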

How the data were processed

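RNA-seq of 5 libraries was used, with group and replicate read from each title. Expression was deposited by the authors as FPKM, 1 value per symbol and library. Per the submitters' processing notes the build was mm9 and the tools TopHat and edgeR. Neither annotation nor quantifier is stated there. Since FPKM is relative to a library's total, very abundant genes lower all others. Exact values of 0 occur for widely used genes and can be failed estimates.

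The 10570 genes averaging 1 FPKM or more were fitted as log2(FPKM + 1) by limma 3.58.1 (R 4.3.3). The model had a group term alone and a trended eBayes prior, tests were two-sided, and p-values were adjusted by Benjamini and Hochberg over all genes, with a threshold of 0.05. This scale understates changes of low genes. The fit was tested on simulated data. Members, roles and lists were chosen with earlier results of these data known. Members given by library were the catalytic subunits, the activators, the extremes of each role by level or fold change and those with separated groups or values near 0; others were added after their values were seen. Pathway genes named were Psmb8, Psmb9, those at 0 in a library and the 2 highest by mean on each list, with Nfe2l1 added after its values were seen. Some genes this rule names are not reported here. Ratios of Psmb8 and Psmb9 to Psmb1 to Psmb4, and of ATPases to lid, were also chosen after seeing the data. Relative depth came from the commonest ratio of values under 0.3 FPKM, within 0.5%, which 7.00% to 32.1% of low genes shared. Python 3.11.15 with pandas 2.3.3 and matplotlib 3.10.9 was used for look-ups, motifs and plots.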

Additional observations from a re-analysis of the deposited data

How the results depend on the processing

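No member and no pathway gene was called under any of the 16 alternatives run, which covered the pseudocount (0.1), filters (none, or a mean of 5 FPKM), median-of-ratios and quantile scaling, eBayes without trend or robust, a block for replicate number, array weights, removal of genes under 0.1 FPKM in 1 library and at 10 or more in another, an adjusted p of 0.1 and leaving out each library. That removal dropped Psma8 and Psme3. The 2 genes called over the whole table became 0 with a pseudocount of 0.1, with no filter or with array weights, 1 without trend, 4 with median-of-ratios scaling or without on-off genes, and 5 with robust eBayes or the threshold of 0.1. They became 0 to 5 when each library was left out. With the replicate number as a block 22 genes were called. In that fit control replicate 3 is alone in its block and adds nothing to the comparison. The fold changes equalled those of the run without it (Psma8 at -3.39 in both), and little is left to estimate the spread from. The labels do not say that numbers pair libraries, and deviations of same-numbered libraries correlated at only 0.035 and 0.0069 across genes. Median-of-ratios scaling moved the median of all genes from -0.10 to 0.016 and that of members from 0.061 to 0.19.

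Leaving out each library moved the median log2 fold change of members between -0.080 and 0.30 and that of core members between -0.10 and 0.38, the ends being the runs without deficient-labelled replicates 1 and 2, in which 1 library stands for its group. The sign of some small fold changes turned. Psmb10 was at 0.091 with median-of-ratios scaling and 0.011 with array weights, and at -0.79 to 0.72 with libraries left out. Psme1 was at 0.081 with median-of-ratios scaling, 0.019 with the replicate block and -0.46 to 0.37 with libraries left out. Psmb8 was at -0.074 with quantile normalization, -0.0100 with the block and -0.42 to 0.48 with libraries left out. The same runs gave -0.23 to 0.75 for Psme2 and -0.92 to 0.033 for Psmb9. Depth is unknown, so no counting error can be given.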
